A study of Homo sapiens with 6 samples.

Results

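The lysyl oxidase family was taken as the 5 rows named LOX, LOXL1, LOXL2, LOXL3 and LOXL4, out of 62700 rows in the gene count table of A673 cells. A673 is an established cell line grown from a Ewing sarcoma, a tumour driven by EWS-FLI1, in which part of EWSR1 is joined to the DNA-binding end of FLI1, a member of the ETS factors. There were 3 libraries labelled EWS-FLI1 knockout and 3 labelled EWS-FLI1 parental control, whose genotype is given as wildtype, meaning that the fusion was left in place. Both groups are the same line in the same medium, and the stated interest of the series was alternative splicing. The labels do not say whether the knockout cells are a single clone or a pool, so clone differences and loss of the fusion cannot be told apart. Separate cultures are not stated for the replicates either, so each p-value rests on a spread between libraries that may be technical.

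Lysyl oxidases are secreted amine oxidases that need copper. They turn lysine and hydroxylysine side chains of collagen and elastin into aldehydes, which then react with neighbouring chains to form the covalent cross-links that give matrix its strength. LOX and LOXL1 are made with a propeptide that proteases of the BMP1 group remove, whereas LOXL2, LOXL3 and LOXL4 carry scavenger receptor domains ahead of the catalytic end. That division showed in the coding sequence: over the last 600 coding bases, which encode the catalytic end, LOX and LOXL1 were 72.0% identical, and LOXL2, LOXL3 and LOXL4 were between 69.3% and 70.7% identical to each other. Between the subfamilies identity lay between 50% and 54.2%.

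The 250 bases before the start site are printed for the largest rise of the family (LOX), the next (LOXL4) and the smallest (LOXL3), since the fusion binds DNA through the ETS core GGAA. The sequences are those of RefSeq on GRCh38.p14, read 5′ to 3′ on the gene's strand, and capitals mark GGAA or its reverse complement TTCC. LOX has 3 RefSeq start windows and LOXL3 has 2, and the most upstream of each is shown. The windows are chr5:122078260-122078509, chr10:98268195-98268444 and chr2:74553943-74554192. These RefSeq starts lie inside the gene spans of GENCODE 29 given below. By those spans the LOX and LOXL4 windows shown lie partly within their genes. The LOXL3 window shown and that of LOXL1, which is not printed, lie wholly within theirs.
LOX: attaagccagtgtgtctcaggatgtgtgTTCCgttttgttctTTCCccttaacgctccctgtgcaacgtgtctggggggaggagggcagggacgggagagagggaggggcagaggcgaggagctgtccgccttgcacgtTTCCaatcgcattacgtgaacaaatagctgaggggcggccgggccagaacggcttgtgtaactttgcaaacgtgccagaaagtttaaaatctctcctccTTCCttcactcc
LOXL4: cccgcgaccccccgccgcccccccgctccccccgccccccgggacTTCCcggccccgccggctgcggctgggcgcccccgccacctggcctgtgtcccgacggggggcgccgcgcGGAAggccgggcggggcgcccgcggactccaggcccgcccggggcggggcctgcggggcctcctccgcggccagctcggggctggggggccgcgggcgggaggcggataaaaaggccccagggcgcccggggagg
LOXL3: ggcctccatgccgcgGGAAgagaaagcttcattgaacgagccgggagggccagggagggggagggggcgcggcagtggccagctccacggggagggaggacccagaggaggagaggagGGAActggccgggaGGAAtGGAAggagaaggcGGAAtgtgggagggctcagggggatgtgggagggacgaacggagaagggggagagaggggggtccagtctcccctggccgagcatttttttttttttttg
GGAA on either strand occurred 4 times in the LOX window shown, 2 times in that of LOXL4, 5 times in the LOXL3 window shown and 3 times in that of LOXL1. LOXL2 had no window among those searched. The other LOX windows, which overlap each other, held 2 and 3 matches, partly at the same sites, and the other LOXL3 window held 2. At least 1 match was held by 92.7% of 35116 promoter windows of the same length, with a median of 3 matches and quartiles of 2 and 4. The doubled form GGAAGGAA, which contains GGAA and was searched on both strands, was in none of these windows and in 3.06% of all. ACGTG is a form of the core of hypoxia response elements. On either strand it occurred 4 times in the LOX window shown, starting 185, 116, 98 and 42 bases before the start. It occurred 1 time in each of the other LOX windows, at a site that they share. It had no match in the windows of LOXL4, LOXL3 and LOXL1. At least 1 ACGTG was held by 18.5% of all windows and at least 4 by 0.669%. The cut of 4 equals the count in the LOX window shown, so the 0.669% is not a test of rarity. These are matches of letters, not measured binding.

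The genes lie on 5 chromosomes, with positions from GENCODE 29 on GRCh38. LOX (ENSG00000113083.15) spans 122063195 to 122078360 on the minus strand of chromosome 5, and its principal transcript has 7 exons and 5102 bases. LOXL1 (ENSG00000129038.16) spans 73925989 to 73952137 on the plus strand of chromosome 15, with 7 exons and 2351 bases. LOXL2 (ENSG00000134013.16) spans 23297189 to 23425328 on the minus strand of chromosome 8, with 14 exons and 3549 bases. LOXL3 (ENSG00000115318.12) spans 74532414 to 74555690 on the minus strand of chromosome 2, with 14 exons and 3502 bases. LOXL4 (ENSG00000138131.4) spans 98247690 to 98268250 on the minus strand of chromosome 10, with 15 exons and 3653 bases.

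Libraries held between 301605666 and 342624492 estimated counts. The targeted partners were read at the level of the gene, which adds fusion and normal transcripts, so they do not check the loss of the fusion: EWSR1 had 240.6, 252.0 and 242.0 CPM in knockout libraries against 300.0, 288.2 and 290.7 CPM in parental libraries, and FLI1 had 53.7, 54.8 and 50.8 CPM in knockout libraries against 39.6, 41.9 and 40.6 CPM in parental libraries. CPM here means counts scaled to a common library size with TMM (trimmed mean of M-values) factors. All 12 genes listed as markers of Ewing cells were detected in parental libraries and lower in knockout libraries by edgeR's quasi-likelihood test, NR0B1 for example at 0.212 ± 0.0256 CPM in knockout and 18.1 ± 1.21 CPM in parental libraries (SD, n = 3 each). By the same test 37.5% of all 28485 tested genes were called lower, at an adjusted p under 0.05.

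All 5 lysyl oxidase genes rose in the knockout libraries, 4 of them by more than 10-fold. LOX, LOXL2 and LOXL4 rose by 223-fold, 123-fold and 157-fold, LOXL1 rose by 16.8-fold and LOXL3 by 2.04-fold. Of 28485 genes tested, 73.8% were called at an edgeR adjusted p under 0.05, 36.3% as higher and 37.5% as lower. The 3 knockout and 3 parental libraries did not overlap for 76.7% of genes, and the knockout libraries lay above for 37.2%. The median log2 fold change, knockout over parental, was 6.94 over the 5 members and -0.06 over all tested genes. Libraries of bulk RNA cannot tell more RNA per cell from more cells that make it.

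**Figure D1:**
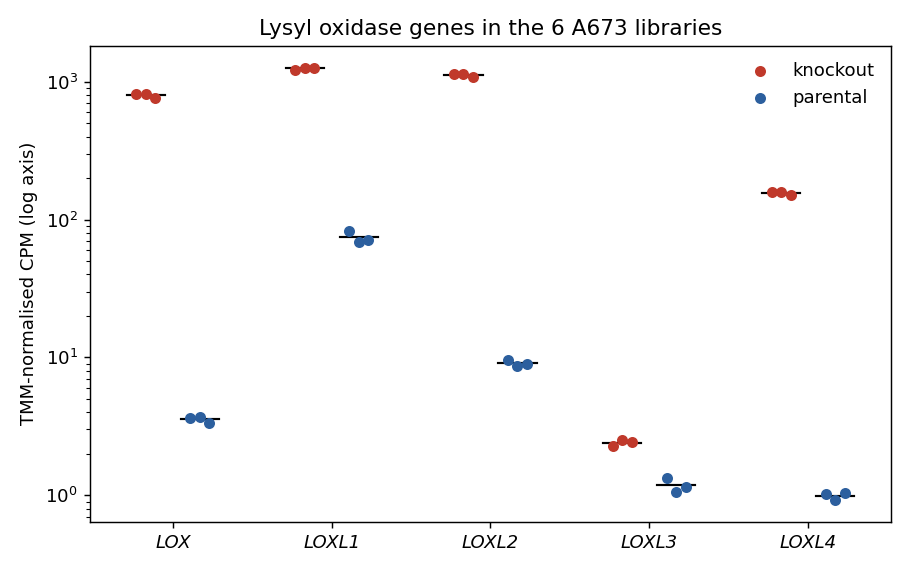
TMM-normalised CPM of each lysyl oxidase gene in every library, on a log axis; points are single libraries, 3 knockout (red) and 3 parental (blue), and bars are group means. Knockout points lie above parental points for all 5 genes, with the narrowest gap at LOXL3.

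LOX is the founding member and cross-links fibrillar collagen and elastin. It had 816, 809 and 757 CPM in knockout libraries, against 3.64, 3.70 and 3.35 CPM in parental libraries. The groups did not overlap, and knockout replicate 3 was the lowest of its group. It changed by 7.80 on the log2 scale (SE 0.069, adjusted p = 5.41e-27 by edgeR), which ranked 141 among all tested genes. Counts averaged 209018 in knockout and 1374 in parental libraries, so that the parental count equalled 0.657% of the knockout count. Among 3251 genes with at least 20000 counts in knockout libraries only 32 kept a lower share, and the 20 lowest had a median share of 0.586%. How much of the parental LOX level is a remainder of this size that abundant genes share was not tested.

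LOXL1, which is known for its part in elastic fibres, had 1220 CPM in knockout replicate 1, 1258 in replicate 2 and 1266 in replicate 3, against 82.1, 68.9 and 71.6 CPM in parental libraries. It was the member with the highest parental level, and parental replicate 1 stood somewhat above the other two. It changed by 4.07 on the log2 scale (SE 0.065, adjusted p = 1.17e-21 by edgeR). In raw counts its parental level was 8.70% of its knockout level.

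LOXL2 acts on fibrillar and basement membrane collagen and has also been described as a nuclear partner of SNAI1. It had 1135, 1136 and 1074 CPM in knockout libraries, against 9.50, 8.67 and 9.01 CPM in parental libraries. Knockout replicate 3 was again the lowest of its group, as for LOX, and the groups were far apart. Its change on the log2 scale was 6.94 (SE 0.064, adjusted p = 6.51e-27 by edgeR), with a parental count equal to 1.19% of the knockout count.

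LOXL4 is the least studied of the scavenger receptor members and also acts on collagen. It had 158 CPM in knockout replicates 1 and 2 and 152 CPM in replicate 3, against 1.014, 0.924 and 1.033 CPM in parental libraries. Parental libraries held between 349 and 412 counts and knockout libraries between 40308 and 41842 counts. On the log2 scale LOXL4 changed by 7.30 (SE 0.068, adjusted p = 6.51e-27 by edgeR), with a parental count equal to 0.932% of the knockout count.

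LOXL3, needed for palate and spine formation in the mouse, was scarce in every library. It had 2.29, 2.51 and 2.42 CPM in knockout libraries, against 1.33, 1.06 and 1.15 CPM in parental libraries. The groups did not overlap, with a change of 1.03 on the log2 scale (SE 0.12, adjusted p = 5.45e-08 by edgeR). Its raw counts differed less, with 586, 650 and 668 in knockout and 508, 401 and 457 in parental libraries. The size of its rise therefore leans on the scaling: with total counts only it was 0.61 (adjusted p = 0.000292), and in a test against a log2 fold change of 1 it did not pass (edgeR glmTreat adjusted p = 0.447), while the other 4 members did, as did 18.1% of all genes in the higher direction.

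Scaling shifted the members by similar amounts. With total counts in place of TMM factors the median gene moved by -0.42 on the log2 scale, and the log2 fold changes became 7.38 for LOX, 3.65 for LOXL1, 6.52 for LOXL2 and 6.87 for LOXL4. All 5 members were called higher with TMM, DESeq2 size factors, upper quartile factors and total counts, where the share of all genes called higher was 25.9% with total counts. In raw terms the 4 responsive genes held 0.0685% (LOX), 0.108% (LOXL1), 0.0962% (LOXL2) and 0.0134% (LOXL4) of all counts in knockout libraries, against 0.000413%, 0.00858%, 0.00105% and 0.000115% in parental libraries.

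**Figure D2:**
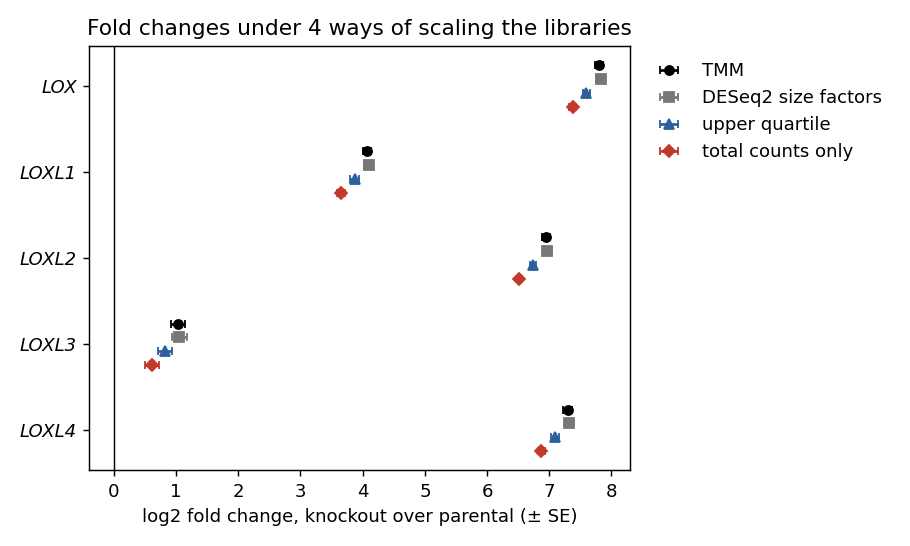
Log2 fold change of each lysyl oxidase gene, knockout over parental, with its SE from edgeR, under TMM, DESeq2 size factors, upper quartile factors and total counts only. Total counts give the lowest value for each gene (7.38 for LOX, 0.61 for LOXL3), and all values lie above 0.

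The make-up of the family changed along with its level. Levels of different genes were compared as CPM per kilobase of principal transcript. In knockout libraries the order was LOXL1 at 531 ± 10.3, LOXL2 at 314 ± 9.95, LOX at 156 ± 6.40, LOXL4 at 42.6 ± 0.944 and LOXL3 at 0.687 ± 0.0311 CPM per kilobase (SD, n = 3). In parental libraries it was LOXL1 at 31.6 ± 2.97, LOXL2 at 2.55 ± 0.117, LOX at 0.699 ± 0.0366, LOXL3 at 0.337 ± 0.0399 and LOXL4 at 0.271 ± 0.0160 CPM per kilobase. Neighbours in these orders did not overlap between libraries. The narrowest step was that of LOXL3, at 0.381, 0.303 and 0.327, over LOXL4, at 0.278, 0.253 and 0.283 CPM per kilobase in parental libraries. That step depended on the length used: both averaged 0.271 CPM per kilobase with the union of annotated exons. The parental counts of LOX, LOXL4 and LOXL2 were 0.657%, 0.932% and 1.19% of their knockout counts. Among 3251 genes with at least 20000 counts in knockout libraries, the 20 lowest such percentages had a median of 0.586%. How far a remainder of this size sets the parental order and the parental shares below was not tested.

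LOXL1 made up 50.9% ± 1.23 of the summed family level per kilobase in knockout libraries and 89.1% ± 0.469 in parental libraries (SD, n = 3). LOXL2 made up 30.1% ± 0.680 in knockout and 7.23% ± 0.308 in parental libraries, and LOX 14.9% ± 0.492 in knockout and 1.98% ± 0.190 in parental libraries. LOXL4 held 4.08% ± 0.0559 in knockout and 0.768% ± 0.0565 in parental libraries. The share of LOXL3 was 0.0658% ± 0.00269 in knockout and 0.950% ± 0.0299 in parental libraries, so it shrank although its level did not. In each genotype LOXL1 stayed the most abundant member per length.

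**Figure D3:**
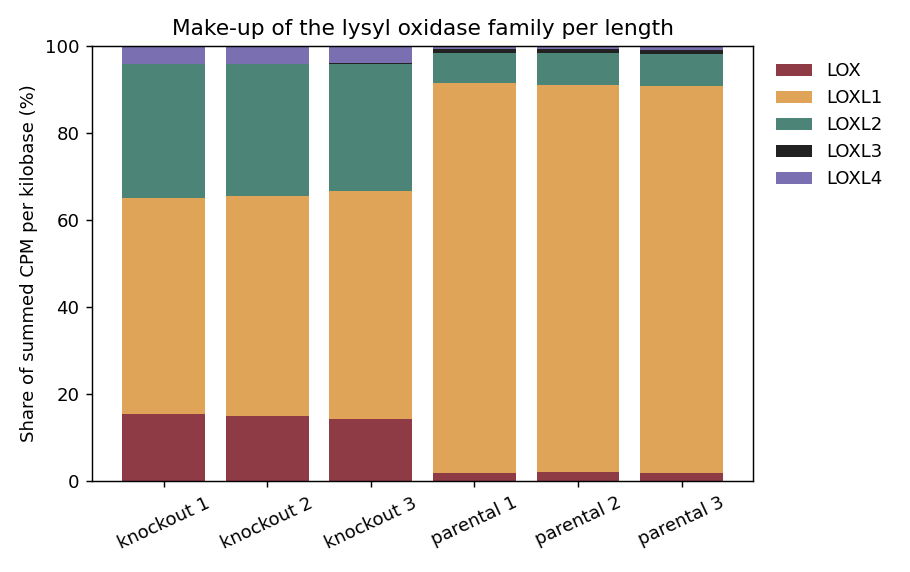
Share of each member in the summed CPM per kilobase of the 5 lysyl oxidase genes, in percent, for 3 knockout and 3 parental libraries. LOXL1 fills 89.1% of the parental bars on average and 50.9% of the knockout bars, where LOXL2 and LOX fill most of the rest.

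Ratios between members within a library need no scaling and were compared for 10 pairs. The log2 ratio of LOX to LOXL1 counts was -0.58, -0.64 and -0.74 in knockout libraries, against -4.49, -4.22 and -4.42 in parental libraries, a difference of 3.72. The ratio of LOX to LOXL2 differed by 0.86 and that of LOX to LOXL4 by 0.50, while LOXL2 to LOXL4 differed by -0.36. In folds, the LOX to LOXL2 ratio differed by 1.81-fold and the LOX to LOXL1 ratio by 13.2-fold. The parental counts of LOX, LOXL4 and LOXL2 were 0.657%, 0.932% and 1.19% of their knockout counts. Among the 3251 genes abundant in knockout libraries, 32, 76 and 106 kept a lower share, and the 20 lowest had a median of 0.586%. A remainder in parental libraries would hold parental counts up and so limit these folds from above, which was not tested. No result is drawn here from the closeness of the 3 folds. The groups did not overlap for any of the 10 pairs. How often this holds for other pairs of genes was not tested. Among all tested genes taken singly, the groups did not overlap for 76.7%. The pairs also reuse the same members, so they are not 10 separate results. Each exact permutation test, two-sided, gave p = 0.1 (adjusted over the 10 pairs, 0.1), which is the smallest value that 3 against 3 libraries allow and does not pass 0.05.

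Genes with the most similar profile over the 6 libraries were found by the root mean square distance between centred log2 CPM values, among 11474 candidates with a symbol and a mean of 5 CPM or more. Nearest to LOX were S100A6, a calcium-binding protein (distance 0.030), the protease gene ADAMTS15 (0.036) and ITGA11, a collagen-binding integrin chain (0.040). Nearest to LOXL2 were ITGA3 (0.026), the actin-binding CALD1 (0.029) and ST8SIA2 (0.041). Nearest to LOXL4 were the matrix protein MATN2 (0.046), the AP-1 subunit FOSL2 (0.054) and the potassium channel KCNMA1 (0.062). ALDH3B1, TFEB and RIN1 lay nearest to LOXL1 (0.032, 0.032 and 0.039), and SLC66A1, RABAC1 and PHETA1 nearest to LOXL3 (0.036, 0.042 and 0.045). With most genes differing between 2 groups, such distances mainly reflect the size of the fold change.

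Every member is overlapped by another annotated gene, and the library kit is not stated to keep strand. No 31-base word was shared between the transcripts of any pair of members. SRFBP1, on the opposite strand, shares 138 exon bases with LOX. It had 9.65 ± 0.760 CPM in knockout and 7.74 ± 0.459 CPM in parental libraries (SD, n = 3), with a log2 fold change of 0.32 (SE 0.070) that was -0.11 with total counts only. LOXL1-AS1 shares 335 bases with LOXL1 and rose by 1.14 on the log2 scale (SE 0.051), to 33.9 ± 0.827 CPM in knockout against 15.4 ± 0.320 CPM in parental libraries. LOXL2-AS1 shares 178 bases with LOXL2 and rose by 1.94 (SE 0.14), to 1.78 ± 0.212 CPM in knockout against 0.465 ± 0.0338 CPM in parental libraries.

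The antisense gene over LOXL4, ENSG00000230928, shares 152 exon bases with it and had 0.693, 0.779 and 1.12 CPM in knockout libraries, against 0.00535, 0.00270 and 0.0150 CPM in parental libraries. Its fitted log2 fold change was 6.73 (SE 0.35), a value that leans on the prior count because the parental level lies near the floor of 3 counts. Without strand its reads and those of LOXL4 cannot be told apart in the shared stretch. For LOXL3, 16.5% of its 31-base words also occur in other genes, mostly in HTRA2 (571 words) and DOK1 (162 words), both on the opposite strand and both more abundant. HTRA2 had 32.2 ± 0.846 CPM in knockout and 34.7 ± 1.67 CPM in parental libraries, with a log2 fold change of -0.11 that did not pass (adjusted p = 0.071) with TMM scaling and was -0.53 (adjusted p = 1.65e-07) with total counts only. DOK1 had 0.20 (SE 0.055), or -0.23 with total counts only. For the other 4 members the share of words found in other genes was between 1.98% and 7.15%.

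Each nearest gene that was tested had a smaller fitted change than the member beside it. Of the nearest genes that do not overlap, R3HCC1 beside LOXL2 had a log2 fold change of -0.11 and R3HCC1L beside LOXL4 one of 0.08, and neither passed with TMM scaling (adjusted p = 0.0594 and 0.190). With total counts only both passed as lower, at -0.54 for R3HCC1 and -0.34 for R3HCC1L. AUP1 beside LOXL3 had -0.12 (SE 0.053), which did not pass with DESeq2 size factors (adjusted p = 0.122) and was -0.54 with total counts only. ENTPD4, which overlaps LOXL2 on the same strand, had 0.48 (SE 0.047) and did not pass with total counts only (0.05, adjusted p = 0.265). PYROXD2 beside LOXL4, 115315 bases away, rose by 2.11 (SE 0.12), and STOML1 beside LOXL1 by 0.88 (SE 0.057). The lncRNA ENTPD4-DT beside LOXL2 fell by 1.39 (SE 0.21), at 0.159 ± 0.0266 CPM in knockout and 0.416 ± 0.00608 CPM in parental libraries. TBC1D21 beside LOXL1 (3.27, SE 0.59), M1AP beside LOXL3 and ENSG00000247311 beside LOX were all under 0.1 CPM on average, and FTMT beside LOX had no counts.

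**Figure D4:**
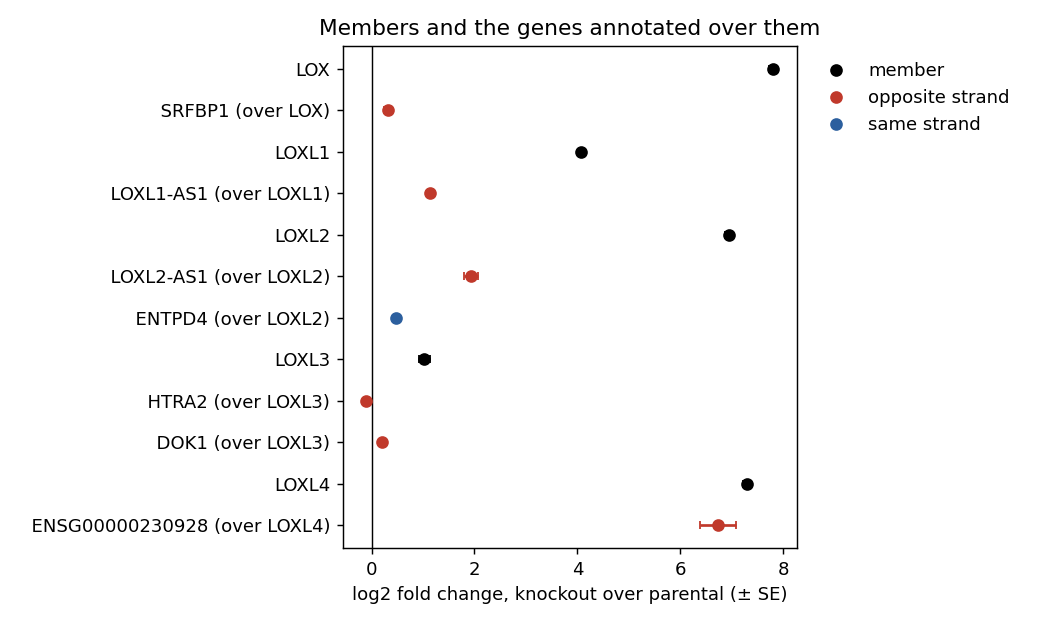
Log2 fold change, knockout over parental, with its SE from edgeR, of the 5 members (black) and of the genes annotated over them on the opposite (red) or same (blue) strand. Only ENSG00000230928, over LOXL4, lies near its member (6.73 against 7.30); SRFBP1 and DOK1 lie below 0 with total counts only.

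The collagen substrates of the family rose with it. Of 11 fibrillar collagen chains, all tested, 9 rose (81.8%, against 36.3% of all tested genes) and 2 were not called. The median log2 change of the chains was 3.32. This list, like the others used here, was chosen with earlier results of these data known, so its risen share is only a description. COL1A1 and COL1A2, the chains of type I collagen, changed by 7.57 (SE 0.062) and 7.96 (SE 0.065), COL3A1 by 7.89 (SE 0.066) and COL5A1 by 5.52 (SE 0.059). COL11A1 did not pass (adjusted p = 0.0525) and was uneven in knockout libraries, at 1.96, 0.0463 and 1.49 CPM, and COL11A2 had a log2 fold change of 0.04, or -0.38 with total counts only, where it passed as lower. Summed per kilobase, fibrillar collagens were 117-fold higher in knockout than in parental libraries, and lysyl oxidases 29.5-fold higher. The level of fibrillar collagen per level of lysyl oxidase was 9.06, 8.82 and 8.85 in knockout libraries, against 2.10, 2.35 and 2.29 in parental libraries, a ratio chosen after the values were seen and not tested.

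Type IV collagen, the network collagen of basement membranes, also rose in part. Of 6 chains 4 rose (66.7%, against 36.3% of all tested genes) and 2 were not called, and the median change was 2.67. The uncalled chains, COL4A3 and COL4A4, were scarce, at 0.106 and 0.151 CPM in knockout and 0.140 and 0.128 CPM in parental libraries, and COL4A3 passed as lower with total counts only. COL4A5 rose to 86.0 ± 4.59 CPM in knockout, against 0.410 ± 0.0270 CPM in parental libraries, and COL4A1 and COL4A2 changed by 3.20 (SE 0.056) and 2.14 (SE 0.053).

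Elastin, the other substrate, went the opposite way. ELN had 16.8, 18.4 and 19.1 CPM in knockout libraries, against 48.5, 43.0 and 45.0 CPM in parental libraries, and fell by 1.33 on the log2 scale (SE 0.059, edgeR adjusted p = 7.01e-15). Of 15 elastic fibre genes 9 rose, 5 fell and 1 was not called, counts that held under all 4 scalings. The risen share was 60%, against 36.3% of all tested genes, of which 37.5% were called lower. The median change was 1.94 with TMM and 1.52 with total counts only. FBLN5 and EFEMP2, fibulins that hold LOXL1 and LOX on elastic fibres, rose by 2.43 (SE 0.051) and 1.94 (SE 0.056). The fibulins FBLN1 and FBLN2 fell by 1.70 (SE 0.053) and 1.57 (SE 0.13). LTBP2, EFEMP1 and LTBP1 changed by 7.81 (SE 0.070), 7.49 (SE 0.074) and 7.13 (SE 0.075), the microfibril gene MFAP2 by 3.77 (SE 0.056), and LTBP4 fell by 1.27 (SE 0.064).

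Of the proteases that act on the LOX propeptide, BMP1 rose and a relative fell. BMP1, the main protease, stood at 341 ± 22.7 CPM in knockout and 33.8 ± 2.06 CPM in parental libraries (3.33, SE 0.062), while TLL1 stood at 1.31 ± 0.0330 CPM in knockout and 16.7 ± 0.127 CPM in parental libraries (-3.67, SE 0.069). Of 12 tested genes of this list (13 listed) 10 rose and 2 fell, with a median of 1.25, or 7 and 3 with total counts only. By comparison, 36.3% of all tested genes were called higher, and 25.9% with total counts only. POSTN and THBS1, matricellular proteins reported to bind BMP1 or LOX, changed by 8.08 (SE 0.070) and 7.89 (SE 0.071), and the procollagen proteases ADAMTS14 and ADAMTS2 by 7.13 (SE 0.077) and 5.29 (SE 0.084). Fibronectin, FN1, which binds LOX, rose by 1.61 (SE 0.069). PCOLCE, an enhancer of BMP1, rose by 0.53 (SE 0.054) with TMM scaling and did not pass with total counts only (0.10, adjusted p = 0.0816). The related enhancer PCOLCE2 fell by 2.11 (SE 0.14), at 0.476 ± 0.0892 CPM in knockout and 2.06 ± 0.131 CPM in parental libraries, and was lower under all 4 scalings.

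Genes of collagen lysine hydroxylation, which fixes the kind of cross-link that lysyl oxidases can form, rose in 9 of 10 cases, with a median of 1.91. Among all tested genes 36.3% were called higher. PLOD2, which hydroxylates telopeptide lysines, rose to 476 ± 25.8 CPM in knockout against 33.9 ± 1.94 CPM in parental libraries (3.81, SE 0.060). Its partner FKBP10 changed by 3.65 (SE 0.054), and P3H4 and P3H3 by 3.08 (SE 0.056) and 2.33 (SE 0.053). COLGALT2 fell by 0.17 (SE 0.055), a call that was lost without knockout replicate 3.

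Copper-handling genes moved both ways. Of 15 listed genes 8 rose, 5 fell and 2 were not called, with a median change of 0.14. Under total counts only 7 rose and 8 fell, and the median was -0.28. The list includes SLC33A1, an acetyl-CoA transporter and not a copper gene, which counts among the risen (1.26, SE 0.052). The risen share was 53.3%, against 36.3% of all tested genes, of which 37.5% were called lower. With total counts only, 7370 of 28485 genes were called higher and 14949 lower, with a median of -0.48. ATP7A, the pump that loads copper onto lysyl oxidases in the Golgi, had 20.66, 19.97 and 18.39 CPM in knockout libraries, against 20.76, 21.99 and 22.05 CPM in parental libraries. On the log2 scale it changed by -0.13 (SE 0.056, adjusted p = 0.0344 by edgeR), and it did not pass with DESeq2 size factors (adjusted p = 0.089), while with total counts only it was -0.56 (adjusted p = 3.06e-07). The uptake channel SLC31A1 had 0.14 (SE 0.051) with TMM scaling and -0.28 with total counts only. The metallothionein MT2A rose by 4.48 (SE 0.069) and the metalloreductase STEAP3 by 3.69 (SE 0.057), while STEAP2 and the pump ATP7B fell by 3.77 (SE 0.064) and 2.47 (SE 0.077).

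Other copper enzymes and amine oxidases moved both ways. Of 14 tested genes (15 listed) 7 rose, 5 fell and 2 were not called, with a median change of 0.80, or 5 and 6 with total counts only. Over all tested genes 36.3% were called higher and 37.5% lower, and 25.9% were called higher with total counts only. MOXD1, a relative of dopamine beta-hydroxylase, changed by 8.22 (SE 0.099) and the peptide-amidating PAM by 1.19 (SE 0.050). The monoamine oxidase MAOA fell by 3.14 (SE 0.10) and the spermine oxidase SMOX by 0.60 (SE 0.058). AOC3, another copper amine oxidase, had 0.185 ± 0.0239 CPM in knockout and 0.487 ± 0.0746 CPM in parental libraries.

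Of 24 factors reported to raise lysyl oxidase genes or to act with LOXL2 and LOXL3, 21 rose, 1 fell and 2 were not called, with a median change of 1.42, against 17 and 4 with total counts only. The share called higher among all tested genes was 36.3% with TMM and 25.9% with total counts only. CCN2, TGFB2, EPAS1 and IRF1 changed by 7.06 (SE 0.061), 7.96 (SE 0.079), 7.48 (SE 0.069) and 5.43 (SE 0.059). CCN2 is a matricellular factor, TGFB2 a TGF-beta ligand, EPAS1 the hypoxia factor HIF-2 alpha and IRF1 an interferon-linked factor. HIF1A rose by 1.21 (SE 0.051) and HIF3A fell by 2.95 (SE 0.19). SNAI1, the partner described for LOXL2 and LOXL3, rose to 6.17 ± 0.475 CPM in knockout against 2.56 ± 0.209 CPM in parental libraries. TGFB1 had a log2 fold change of 0.37 (SE 0.052) with TMM scaling and -0.05 with total counts only.

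**Figure D5:**
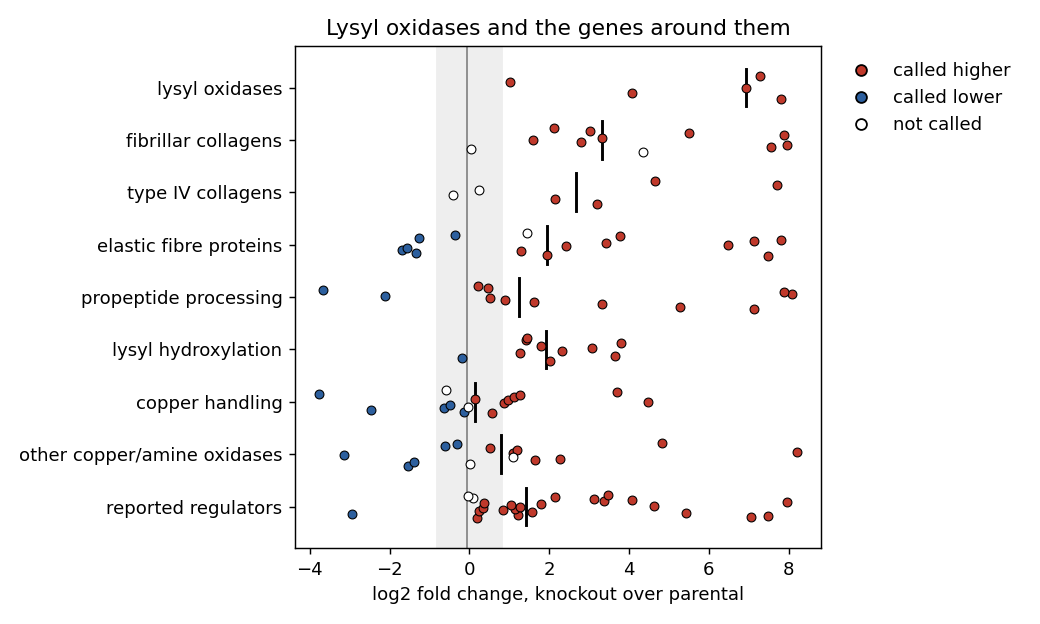
Log2 fold change, knockout over parental, of each tested gene of the lysyl oxidase list and of the lists around it; filled points were called higher (red) or lower (blue) by edgeR, open points were not called, and black bars are list medians. The grey line and band are the median (-0.06) and quartiles of all 28485 tested genes; the median is 6.94 for lysyl oxidases and 0.14 for copper handling (-0.28 with total counts only).

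Markers of fibroblasts, cells that make much lysyl oxidase and collagen, moved with the family. All 10 rose, where 36.3% of all tested genes were called higher. Their summed level was between 3275 and 3480 CPM in knockout libraries and between 318 and 331 CPM in parental libraries. None of the 10 was at 0 in either genotype, and their part in the result was not tested. Of 8 epithelial markers 3 rose, 1 fell, 1 was not called and 3 were too low to test, with sums of 248 to 270 CPM in knockout and 7.56 to 8.50 CPM in parental libraries, carried by KRT18 and KRT8. EPCAM, the defining epithelial marker, was at 0.0423 CPM in knockout and 0.432 CPM in parental libraries. Of 7 endothelial markers 4 rose, 1 fell and 2 were not called, with sums of 8.77 to 9.55 CPM in knockout and 0.870 to 0.964 CPM in parental libraries, mostly PECAM1. Of 10 leukocyte markers 4 rose, 2 fell, 1 was not called and 3 were too low to test, with sums of 13.7 to 15.6 CPM in knockout and 5.53 to 6.59 CPM in parental libraries, mostly CD68, and MS4A1 was at 0 in all libraries. Of the tested markers, 60% of the epithelial, 57.1% of the endothelial and 57.1% of the leukocyte list rose, against 36.3% of all tested genes. The part of these markers in the result was not tested either.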

How the data were processed

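Polyadenylated RNA of 6 A673 libraries was made into libraries (NEBNext Ultra II) and read on a NovaSeq, per the labels' protocols. The authors deposited estimated counts per gene, made with kallisto 0.48.0 on hg38, per the submitters' processing notes; no source used here gives the annotation, filters or strand setting. kallisto splits ambiguous reads between transcripts by likelihood, which could shift genes that overlap.

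The members and lists were chosen with earlier results of these data known. Estimated counts were rounded and tested with edgeR 4.0.16 in R 4.3.3: filterByExpr (minimum count 10, minimum total 15), TMM factors, quasi-likelihood fit with robust dispersions, genotype as the only term, two-sided, Benjamini-Hochberg over 28485 genes at 0.05. All 5 members passed the filter. The SE is the log2 fold change divided by the root of F. Alternatives used DESeq2 1.42.0, limma 3.58.1, other scalings and filters, a replicate block and left-out libraries. The steps were tested on simulated counts in which few genes changed. That differs from these data, so the scaling between libraries was not checked by it. A floor of 3 counts is 0.00876 to 0.00995 CPM of the total, for counting error only. Replicates within a genotype differed by more than sampling noise (chi-square per degree of freedom 11.1 to 78.1). Lengths and neighbours come from GENCODE 29, matched by gene ID without version. Named genes were the members, overlapping and nearest genes, the up to 4 list genes of smallest adjusted p at 1 CPM or more, and others with a stated role.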

Additional observations from a re-analysis of the deposited data

How the results depend on the processing

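The log2 fold changes of LOX, LOXL1, LOXL2 and LOXL4 kept their direction and passed under all 17 alternatives, with ranges of 7.38 to 7.85, 3.65 to 4.17, 6.519 to 6.9998 and 6.87 to 7.34. LOXL3 ranged from 0.61 to 1.15 and failed only in glmTreat against a log2 fold change of 1 (1.03, adjusted p = 0.447), where the alternative itself asks for a larger change. Leaving out 1 library gave 7.77 to 7.85 for LOX, 4.04 to 4.17 for LOXL1, 6.929 to 6.9998 for LOXL2, 0.97 to 1.15 for LOXL3 and 7.27 to 7.34 for LOXL4. Over all genes, 5153 were called higher and 4412 lower by glmTreat, and 6650 and 6975 with at least 1 CPM in 3 libraries, where fewer genes were tested, against 10328 and 10687. With total counts only the risen share of calls was 33.0%, against 49.1%, and with upper quartile factors 40.5%.

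The replicate block gave 7.80, 4.08, 6.94, 1.03 and 7.30 for LOX to LOXL4, with 10041 genes higher and 10377 lower, and changed no call of a member. Deviations of same-numbered libraries correlated at -0.26, -0.09 and -0.01, so the numbers are not taken to pair them.

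Family shares depend on the length used, by construction. With no length, LOX, LOXL1, LOXL2, LOXL3 and LOXL4 held 23.9%, 37.7%, 33.6%, 0.0726% and 4.70% in knockout and 4.02%, 83.3%, 10.2%, 1.32% and 1.12% in parental libraries. With the union of annotated exons, chosen after seeing the data, they held 19.7%, 47.4%, 26.9%, 0.0761% and 5.88% in knockout and 2.79%, 88.0%, 6.87%, 1.17% and 1.17% in parental libraries. Of 442 list counts under alternatives, 417 stayed within 1.5 times and 25 did not, with total counts, glmTreat and the 1 CPM filter giving most of those. LOXL3 and LOXL4 hold the fewest counts of the family in parental libraries, with means of 455 and 382.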
